A study of Homo sapiens with 18 samples.

Results

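The genes described here make sterols and fatty acids and regulate that synthesis. They were 36 named genes in 4 roles: enzymes of the sterol pathway, the SREBP factors with their regulators, enzymes of fatty acid synthesis, and genes of sterol transport. Of the 36, 34 could be followed, each through the probe set with the highest mean over the arrays, among 18132 genes so represented on a human expression array. The 34 comprise 16 sterol enzymes, 5 SREBP regulators, 10 fatty acid enzymes and 3 transport genes. FDFT1 was not analysed here, and CYP51A1 was left out because its probe sets are annotated to a neighbouring gene as well. Of the 34 probe sets, 18 are of the design types that may also bind other transcripts.

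The 18 arrays hold 6 groups of 3 from WiDr and HT29, human colorectal cancer cell lines, WiDr being known as a derivative of HT29. WiDr cells were given vehicle or AZ628, an inhibitor of the BRAF kinase, and HT29 cells were given vehicle or AZ628. Further WiDr cells were transduced with a control shRNA or with an shRNA targeting IKKα (gene CHUK), a kinase of the NF-κB pathway. The title concerns whether tumours driven by BRAF need IKKα. The dose and time of AZ628, the vector and the number of hairpins are not given in the sources used here. Nor is it given whether the cells of a group came from separate cultures. A p-value thus sets a difference between groups against the scatter within groups, pooled over the 18 arrays. That scatter may be technical. The 6 shRNA arrays and the 6 AZ628 and vehicle arrays of WiDr share no array.

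Animal cells make cholesterol from acetyl-CoA through mevalonate, farnesyl diphosphate, squalene and a chain of sterol intermediates. Most genes of the route are targets of the SREBP transcription factors, which are made as precursors anchored in the membrane of the endoplasmic reticulum. SCAP escorts the precursors to the Golgi, where proteases release the active part, while the INSIG proteins hold SCAP back when sterols are plentiful. INSIG1 is itself an SREBP target and SREBF1 activity drives fatty acid synthesis, whereas ABCA1, which exports cholesterol, is induced through the sterol-sensing liver X receptors.

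Values are the deposited log2 intensities after robust multi-array averaging (RMA), and each difference is between means of 3 arrays on that scale. A gene was said to rise or fall where limma's moderated test gave a Benjamini-Hochberg adjusted p under 0.05 over all 18132 genes. The arrays of a group correlated with each other at r between 0.9971 and 0.9985 over genes, and arrays of different groups at 0.9555 to 0.9963. CHUK fell by 2.12 with IKKα shRNA against control shRNA (SE 0.12, adjusted p 4.11e-10), and by 0.43 and 0.37 with AZ628 in WiDr and HT29. DUSP6, a target of the ERK pathway, fell by 4.14 with AZ628 in WiDr and by 4.67 in HT29. Both lines expressed most of the colorectal epithelial marker list, at a mean over its 10 genes of 11.01 to 11.46 per array. Group means of its single genes ran from 5.30 to 14.37. CDX1 on every array, and CDX2 on every array but those of HT29 with AZ628, read below 6.86, the level of the median gene. The mean over the 10 genes was lowest on the IKKα shRNA arrays, at 11.01 to 11.09, against 11.43 to 11.46 with control shRNA. Of the 10, 3 fell there, among them VIL1 and LGALS4 (-1.16 and -1.71), and 7 did not pass. The means of the fibroblast, blood and endothelial lists were between 4.11 and 6.83, the blood list's raised by LYZ, and the median gene averaged 6.86. The fibroblast list's 6 genes averaged 4.69 to 4.80 with IKKα shRNA and 4.11 to 4.17 with control shRNA. LUM rose by 2.84 and COL3A1 by 0.50, while 4 of the 6 did not pass. COL3A1 read only 2.99 to 3.18 with control shRNA and 3.40 to 3.86 with IKKα shRNA, near the 10th percentile of gene means (3.62). Markers also moved with AZ628: LUM rose by 1.25 in WiDr and 1.77 in HT29, KRT20 fell by 1.22 and 1.10, and VIL1 rose by 0.98 and 0.85, while the epithelial mean was 11.20 to 11.26 with vehicle and 11.30 to 11.36 with AZ628 over both lines. With control shRNA against vehicle, 5 of the 10 epithelial markers rose, VIL1 furthest (0.75). The part of these marker shifts in the results below was not tested.

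Most of the sterol genes were lower with IKKα shRNA. Against control shRNA, 23 of the 34 fell and 2 rose, while 19% of all genes fell and 15.9% rose. The median log2 difference was -0.51 over the 34 and 0.02 over all genes. Of the 34, 9 fell at least 2-fold and none rose so far, and 3.77% of all genes passed the test with a change of that size in either direction. The 3 IKKα shRNA arrays lay below all 3 control shRNA arrays in 23 of the 34 genes and above them in 3, against 23.4% and 23.3% of all genes.

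Among the SREBP regulators, INSIG1 gave the largest fall of the 34. It read 11.18, 11.12 and 11.19 with control shRNA and 7.60, 7.82 and 7.89 with IKKα shRNA. The groups were more than 3 log2 units apart, and the other 4 groups also lay above every IKKα shRNA array. The fall of 3.40 (SE 0.10, adjusted p 5.91e-14, 10.5-fold) ranked 3rd among the falls of all genes. All 3 INSIG1 probe sets fell, by 2.22 to 3.40. INSIG2, its paralogue, went the other way: it read 9.46, 9.55 and 9.41 with control shRNA and 10.08, 9.98 and 10.04 with IKKα shRNA, without overlap, and rose by 0.56 (SE 0.07, adjusted p 5.23e-06). Its 3 probe sets differed by 0.14 to 0.62 and 2 of them rose. Without probe sets that may bind several transcripts the INSIG2 rise was 0.14 (adjusted p 0.0447).

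The SREBP genes themselves differed from each other. SREBF1 read 9.25, 9.39 and 9.28 with control shRNA and 8.23, 8.27 and 8.39 with IKKα shRNA. It fell by 1.01 (SE 0.06, adjusted p 5.2e-10), on 1 of its 3 probe sets, the others differing by as little as -0.13, and by 0.43 on the mean of the probe sets. SREBF2, the factor most tied to sterol synthesis, read 7.84, 8.03 and 7.87 and 7.79, 7.95 and 7.74, which did not pass (log2 difference -0.09, SE 0.08, adjusted p 0.432), though the mean of its probe sets did (-0.19, adjusted p 0.0165). The escort SCAP did not pass either (log2 difference -0.07, SE 0.08, adjusted p 0.503).

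Of the 16 sterol enzymes, 15 fell with IKKα shRNA and none rose, while 19% of all genes fell and 15.9% rose. The median log2 difference of the 16 was -0.74, against 0.02 over all genes. MSMO1, the methyl oxidase that removes sterol methyl groups, read 10.58, 10.62 and 10.63 with control shRNA and 8.61, 8.66 and 8.85 with IKKα shRNA. It fell by 1.90 (SE 0.09, adjusted p 3.12e-11, 3.74-fold), and 3 of its 4 probe sets fell. HMGCS1, which makes the precursor of mevalonate, read 10.12, 9.98 and 10.21 against 8.54, 8.65 and 9.05 and fell by 1.36 (SE 0.15, adjusted p 9.47e-07). The IKKα shRNA arrays of HMGCS1 were spread over more than the control shRNA arrays, yet all lay below them.

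SQLE, which oxidises squalene, read 12.63, 12.59 and 12.69 with control shRNA and 11.40, 11.30 and 11.35 with IKKα shRNA. Its fall of 1.29 (SE 0.05, adjusted p 5.7e-12) was seen on 4 of 4 probe sets. IDI1, the isomerase of the isoprene unit, fell by 1.25 (SE 0.10, adjusted p 1.91e-08) from 10.11, 10.12 and 10.16 to 8.74, 8.85 and 9.05. ACAT2, the cytosolic thiolase at the start of the route, fell by 1.10 (SE 0.08, adjusted p 5.27e-09). These 5 enzymes were the sterol enzymes with falls of at least 2-fold.

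Smaller falls ran along the rest of the route. FDPS, the farnesyl diphosphate synthase, fell by 0.93, and TM7SF2, a sterol reductase, by 0.90, the latter on 5 of 5 probe sets. EBP, a sterol isomerase, fell by 0.75, and DHCR7, the last reductase before cholesterol, by 0.72. HSD17B7, which reduces a sterol ketone and has near-identical pseudogenes that its probe set may also read, fell by 0.67. The 5 remaining enzymes with a fall were NSDHL at -0.55, MVK at -0.48, LSS at -0.42, MVD at -0.30 and PMVK at -0.27. The kinases MVK and PMVK and the decarboxylase MVD act on mevalonate, NSDHL removes a sterol carboxyl group, and LSS closes the sterol rings. SC5D, a sterol desaturase, was the enzyme that did not pass (log2 difference -0.08, SE 0.07, adjusted p 0.393), though 2 of its 4 probe sets fell, by up to 1.29, as did their mean (-0.44, adjusted p 2.95e-06).

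The fatty acid enzymes split. Of 10, 5 fell with IKKα shRNA, none rose and 5 did not pass, while 19% of all genes fell and 15.9% rose. SCD, which puts the double bond into saturated fatty acids, read 13.18, 13.14 and 13.16 with control shRNA and 11.82, 11.86 and 11.93 with IKKα shRNA. It fell by 1.29 (SE 0.05, adjusted p 3.16e-12), on 4 of 4 probe sets and with no overlap. FADS1, a desaturase of polyunsaturated fatty acids, fell by 1.07 (SE 0.11, adjusted p 3.08e-07), and LPIN1, a phosphatidate phosphatase, by 0.83 (SE 0.08, adjusted p 3.95e-07). AACS, which activates acetoacetate, fell by 0.25, but on the mean of its probe sets the call was lost (-0.14, adjusted p 0.0869).

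FASN, the fatty acid synthase, was at the edge of the threshold (log2 difference -0.25, SE 0.09, adjusted p 0.0486). Its call was lost without either of control shRNA replicates 2 and 3 or either of IKKα shRNA replicates 2 and 3, with adjusted p between 0.11 and 0.172, and under 5 of the other alternatives, another quantile normalization among them (-0.17, adjusted p 0.174). The enzymes that supply and extend fatty acids did not pass, ACLY differing by -0.07 (SE 0.06), ACACA by -0.12 (SE 0.08; on the mean of its probe sets it fell by 0.20, adjusted p 0.0208) and ELOVL6 by 0.08 (SE 0.06). ACSS2 at -0.16 and FADS2 at 0.10 did not pass.

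The 3 transport genes differed from each other. STARD4, which carries sterol through the cytosol, fell by 0.85 (SE 0.08, adjusted p 1.41e-07), on 5 of 5 probe sets, and by 1.69 without probe sets that may bind several transcripts, a choice that also took LSS to -0.75. NPC1, which releases cholesterol from lysosomes, read 8.20, 8.17 and 8.10 with control shRNA and 8.85, 8.78 and 8.85 with IKKα shRNA and rose by 0.67 (SE 0.07, adjusted p 3.33e-07). ABCA1 did not pass (log2 difference 0.16, SE 0.07, adjusted p 0.0748), although another quantile normalization and median centring of the arrays each took it past the threshold, at 0.22 (adjusted p 0.0109) and 0.19 (adjusted p 0.0379).

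**Figure D1:**
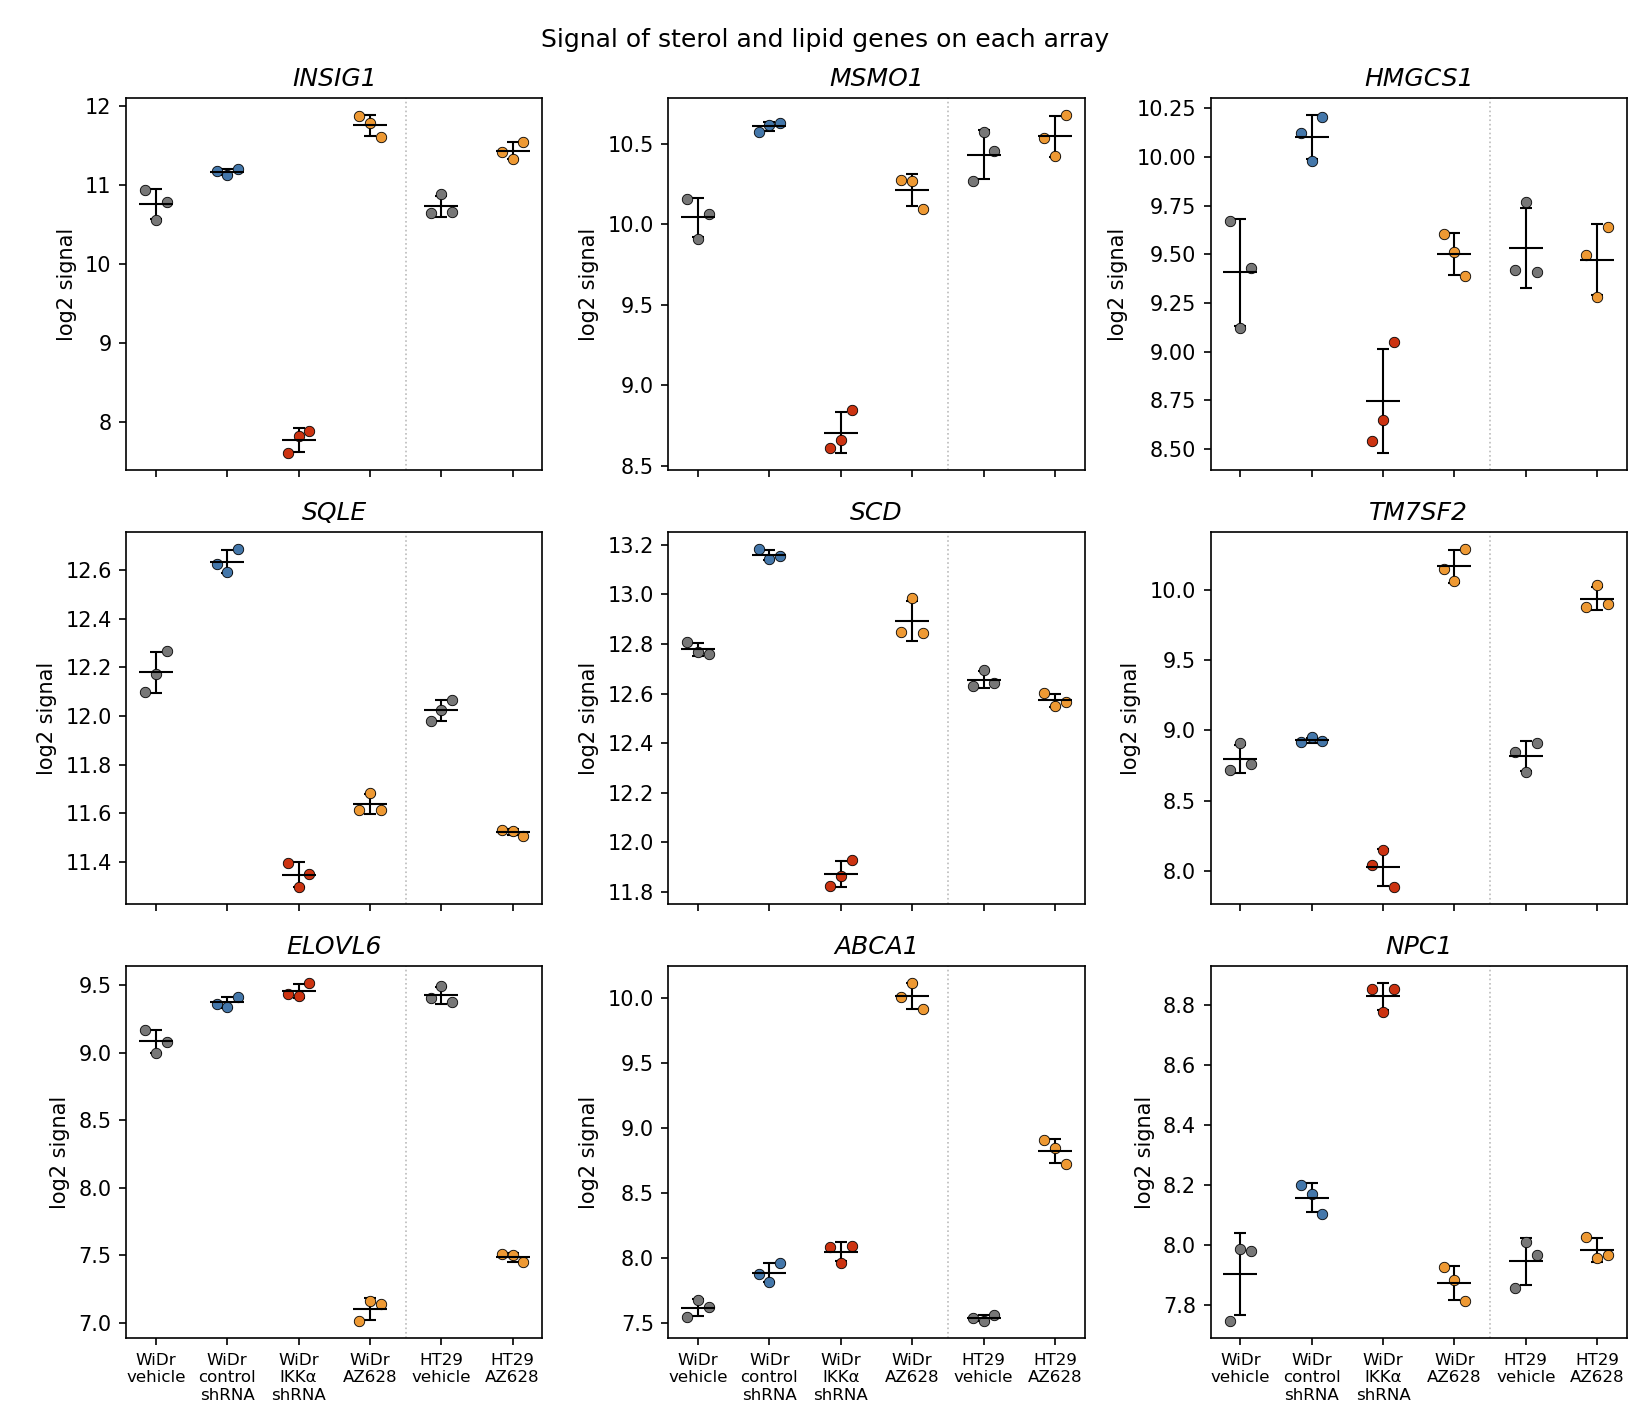
Deposited log2 RMA values (y axis) of single arrays for selected genes, by group (x axis, 3 arrays each), with bars at the group mean and its SD; the y range differs between panels. The 3 IKKα shRNA arrays of INSIG1 lie between 7.60 and 7.89, below the other 15 arrays.

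Because the sterol genes moved together, the 250 bases upstream of their annotated starts were searched on both strands for CCAAT (the box bound by NF-Y, a partner of SREBP), CACGTG (an E-box), GGGCGG (a GC box) and TCACNCCAC (a sterol regulatory element, N being any base). Promoters from RefSeq on GRCh38.p14 were matched by symbol for 31 of the 34 genes, and SQLE, ACAT2 and FASN had no entry. CCAAT lay upstream of 20 of the 31, or 64.5%, against 37% of 27305 genes and 32% of all 35116 windows. Those 27305 are all genes with a RefSeq promoter, whether or not on the array or expressed, and were not matched to the 31. The 31 had 44 windows, and a gene counted if any window held the motif. The gap therefore need not be particular to sterol genes. Of the 20 genes with a promoter that fell with IKKα shRNA, 15 held CCAAT, and of the other 11, 5 did. At least 3 CCAAT boxes were found in 7 of the 31 genes and in 3.55% of all genes. GGGCGG lay in 30 of the 31 genes and in 46.2% of all genes (42.6% of windows), and CACGTG in 4 of the 31 and 7.73% of all genes (6.34% of windows). TCACNCCAC was found for SREBF2 alone among the 31, in 1.09% of all genes and in 0.883% of windows. Only that sequence was searched, so an element with other letters, or outside the 250 bases, would not be counted. A match is a description of the letters, not of binding or of a cause. The 4 windows below are the promoters of INSIG1 and MSMO1, which fell furthest with IKKα shRNA, of SREBF2, which did not pass, and of ABCA1, which rose furthest with AZ628. They lie at chr7:155297628-155297877 on the plus strand, chr4:165327419-165327668 on the plus strand, chr22:41832855-41833104 on the plus strand and chr9:104928156-104928405 on the minus strand. Each is written 5′ to 3′ toward the gene, with capitals for CCAAT or its complement ATTGG, for CACGTG in INSIG1 and ABCA1, and for the sterol regulatory element in SREBF2.
INSIG1: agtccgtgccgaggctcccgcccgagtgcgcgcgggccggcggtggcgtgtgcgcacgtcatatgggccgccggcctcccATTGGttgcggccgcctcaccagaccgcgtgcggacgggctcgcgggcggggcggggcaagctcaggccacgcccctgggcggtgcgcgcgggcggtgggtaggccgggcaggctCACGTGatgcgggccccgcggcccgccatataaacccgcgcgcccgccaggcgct
MSMO1: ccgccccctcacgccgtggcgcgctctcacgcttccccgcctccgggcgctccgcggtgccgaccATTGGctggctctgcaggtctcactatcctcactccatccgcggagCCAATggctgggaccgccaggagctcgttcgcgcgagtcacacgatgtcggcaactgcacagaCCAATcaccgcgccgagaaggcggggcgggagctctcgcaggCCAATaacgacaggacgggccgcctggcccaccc
SREBF2: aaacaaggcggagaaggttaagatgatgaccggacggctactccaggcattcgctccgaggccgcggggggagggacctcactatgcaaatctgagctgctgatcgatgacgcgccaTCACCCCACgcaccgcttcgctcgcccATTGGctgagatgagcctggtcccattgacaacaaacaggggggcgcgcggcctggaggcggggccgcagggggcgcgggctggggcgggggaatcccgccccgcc
ABCA1: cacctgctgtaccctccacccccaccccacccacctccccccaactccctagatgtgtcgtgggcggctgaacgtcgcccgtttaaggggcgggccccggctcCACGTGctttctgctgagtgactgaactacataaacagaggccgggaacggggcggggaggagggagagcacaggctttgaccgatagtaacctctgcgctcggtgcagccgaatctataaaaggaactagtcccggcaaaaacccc

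The MSMO1 window holds 4 CCAAT boxes and the INSIG1 window 1 box and 1 E-box. The SREBF2 window holds 1 box beside its sterol regulatory element, and the ABCA1 window an E-box and no CCAAT.

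The choice of control matters for these genes, since the WiDr cells given vehicle and those with control shRNA differed. Against vehicle, 21 of the 34 were higher with control shRNA and none was lower, while 11.6% of all genes were higher and 10.6% lower. The 3 control shRNA arrays lay above all 3 vehicle arrays in 25 of the 34 genes and below them in none, against 17.8% and 22.4% of all genes. The median difference was 0.27 over the 34 and -0.04 over all genes. HMGCS1 rose by 0.70 (SE 0.15), LPIN1 by 0.62, MSMO1 by 0.57, IDI1 by 0.55, SQLE by 0.46, DHCR7 by 0.46 and INSIG1 by 0.41 (SE 0.10, adjusted p 0.00952). Of the 16 sterol enzymes, 10 rose and none fell, and none of the 34 rose 2-fold, as 0.392% of all genes passed with a change of that size.

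Single arrays decided some of these calls. Over all genes 4023 passed, but 2309 without vehicle replicate 2 and 2614 without vehicle replicate 3. Without vehicle replicate 2, the calls of FDPS (adjusted p 0.0563), HSD17B7 (0.0592) and INSIG1 (0.0595) were lost. NSDHL lost its call in 5 of the 6 fits without 1 array, all but that without control shRNA replicate 3. EBP lost it without control shRNA replicate 2 or vehicle replicate 1, SREBF1 without control shRNA replicate 2 or vehicle replicate 3, and NPC1 without vehicle replicate 1. On the mean of the probe sets the calls of AACS (0.11, adjusted p 0.188), SREBF1 (0.05, adjusted p 0.516) and ABCA1 (0.06, adjusted p 0.428) were lost, and that of INSIG1 without probe sets that may bind several transcripts (0.20, adjusted p 0.329). Another quantile normalization ended those of NSDHL, EBP, SREBF1 and NPC1 (adjusted p 0.0751 to 0.188).

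Set against vehicle instead, the IKKα shRNA arrays, which are the same arrays, had 20 of the 34 lower and 7 higher, against 19.8% and 16.4% of all genes. At 2-fold or more 3 were lower, against 2.84% of all genes in either direction. The comparisons share the IKKα shRNA arrays, so their values are given side by side. INSIG1 differed by -3.40 from control shRNA and -2.99 from vehicle. MSMO1 differed by -1.90 and -1.34, SQLE by -1.29 and -0.83, and ACAT2 by -1.10 and -1.01.

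HMGCS1 differed by -1.36 and -0.66, IDI1 by -1.25 and -0.70, and SREBF1 by -1.01 and -0.78. All 7 of these genes passed against either control. LPIN1 did not pass against vehicle (-0.21, adjusted p 0.0607), nor did AACS (0.10, adjusted p 0.181) or FASN (-0.18, adjusted p 0.148). NPC1 and INSIG2 were higher against either control, NPC1 by 0.67 and 0.92 and INSIG2 by 0.56 and 0.86. ACACA (0.31), ELOVL6 (0.37), ACSS2 (0.27), SC5D (0.22) and ABCA1 (0.43) were higher than vehicle and did not pass against control shRNA. On the mean of the probe sets SC5D (0.01, adjusted p 0.914) and ABCA1 (0.07, adjusted p 0.39) lost the call, and of the 4 probe sets of SC5D 3 rose and 1 fell (-0.83). ACSS2 lost that call without vehicle replicate 2 (0.17, adjusted p 0.192) or IKKα shRNA replicate 1 or 2, and SC5D without vehicle replicate 2 or 3 or IKKα shRNA replicate 3. The fall of HSD17B7 against vehicle (-0.29) was lost without vehicle replicate 1 or 3 or IKKα shRNA replicate 1 (-0.19, adjusted p 0.128).

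Over the 6 groups, the mean of the IKKα shRNA arrays was the lowest for 13 of the 16 sterol enzymes (81.2%) and 21 of the 34 genes (61.8%), and for 21.9% of all genes. The control shRNA mean was the highest for 6 of the 16 enzymes (37.5%) and 11 of the 34 genes (32.4%), and for 10.3% of all genes. These shares are descriptions and carry no test.

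**Figure D2:**
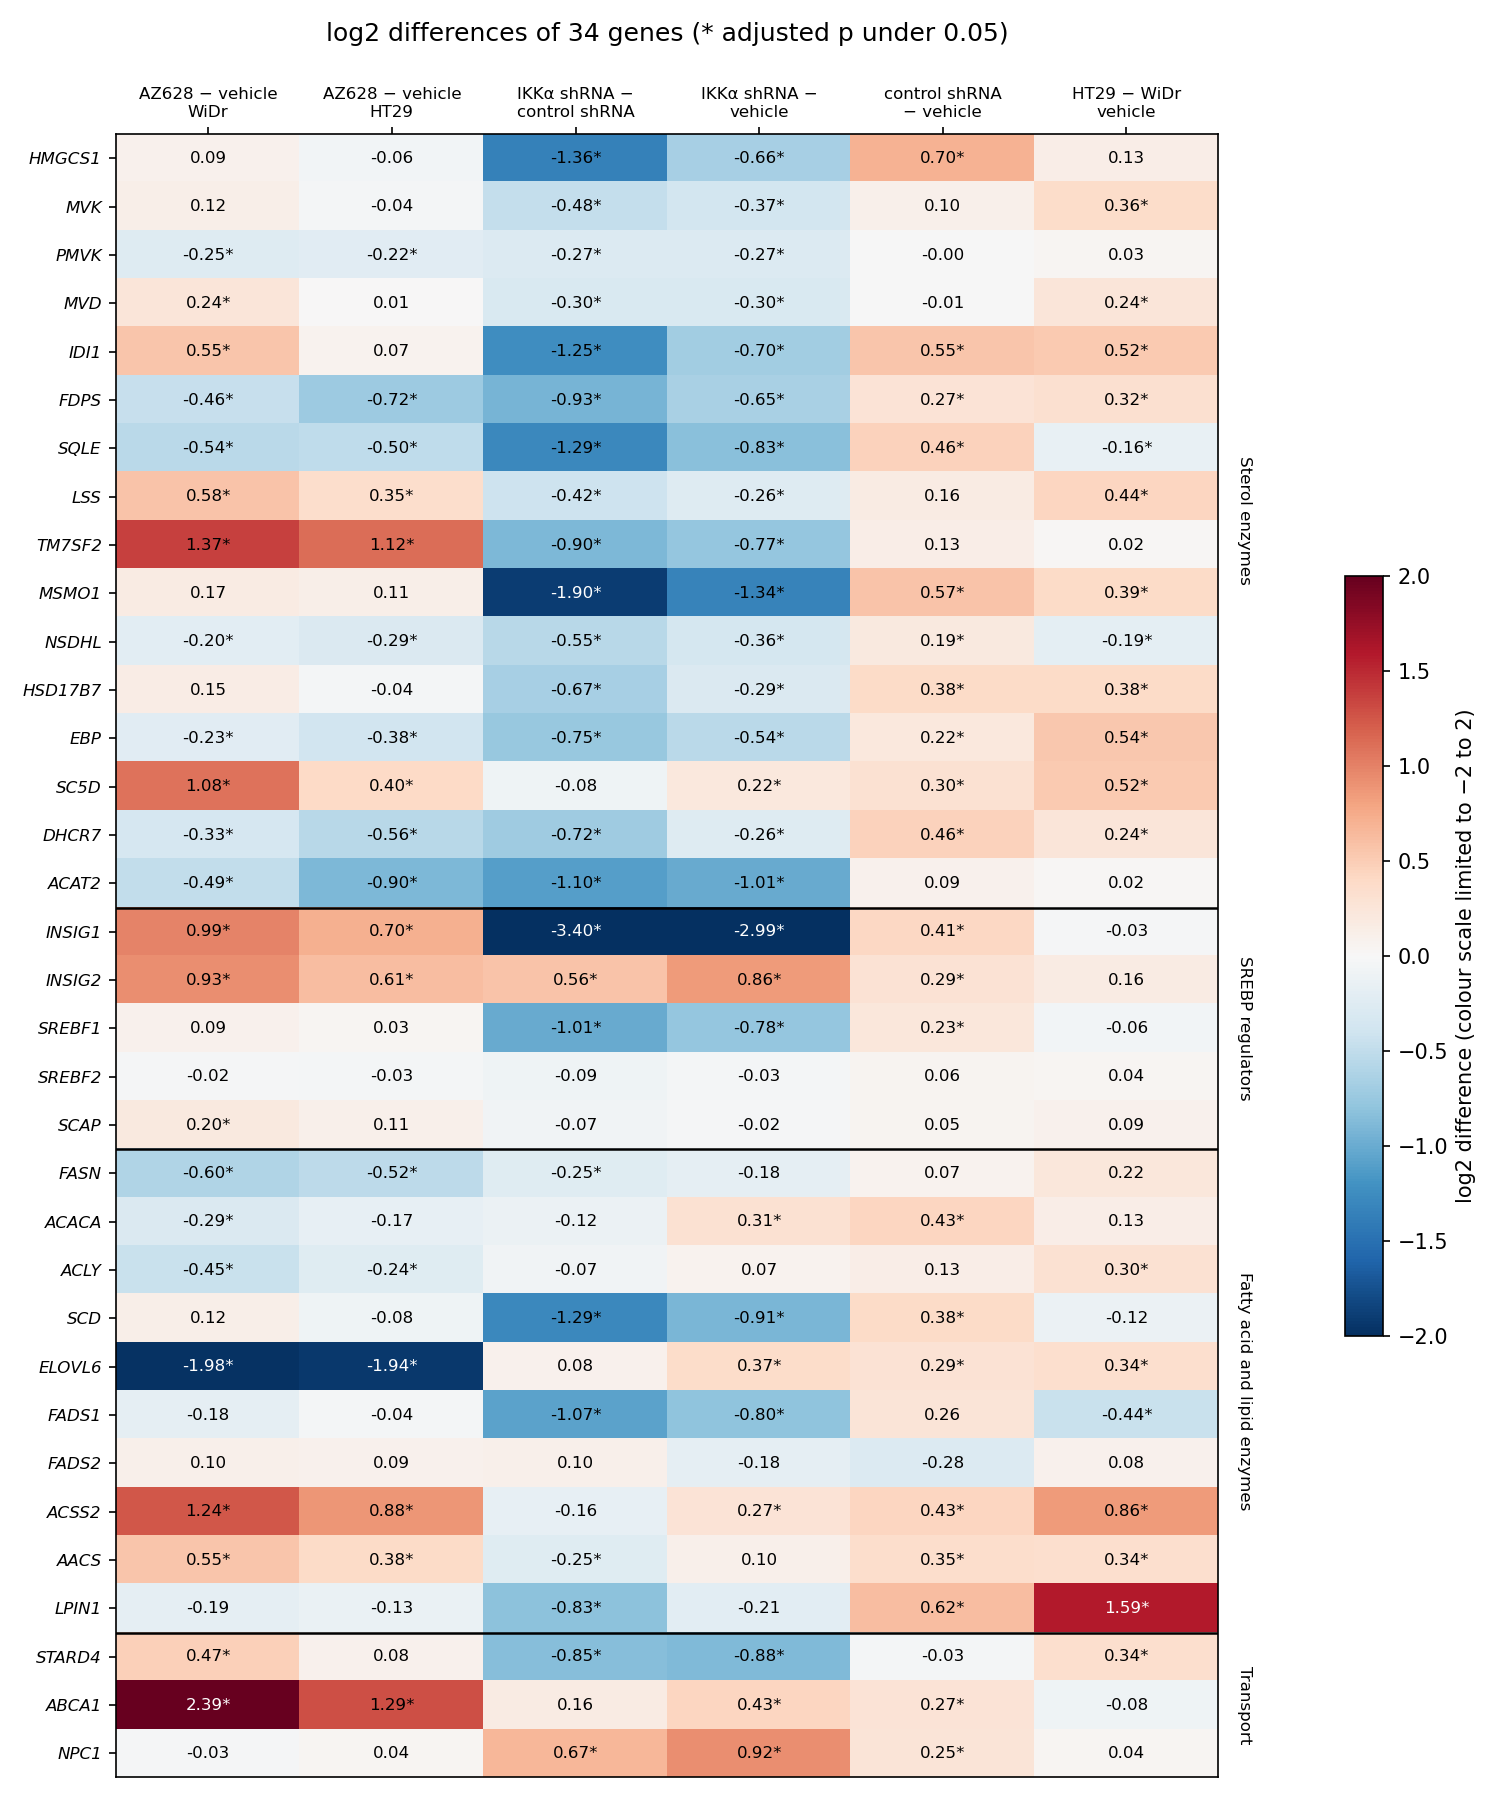
Log2 differences (colour scale) of the 34 genes, in rows by role, for the comparisons named in the columns, with a mark where limma's adjusted p is under 0.05. The IKKα shRNA against control shRNA column holds falls in 15 of the 16 sterol enzymes, and the control shRNA against vehicle column holds 21 rises and no fall.

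AZ628 moved the genes in both directions. In WiDr, 12 of the 34 rose and 11 fell, against 23.4% and 21.1% of all genes, with a median difference of 0.10 over the 34 and 0.00 over all genes. In HT29, 8 rose and 10 fell, against 22.5% and 21% of all genes, with medians of -0.04 and 0.00. At least 2-fold, 4 rose and 1 fell in WiDr and 2 rose and 1 fell in HT29, against 8.68% and 7.25% of all genes in either direction. The AZ628 arrays lay apart from vehicle and above it for 13 of the 34 genes in WiDr and below it for 11 (26.5% and 24.6% of all genes), and for 9 and 13 in HT29 (25.6% and 23.5% of all genes).

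ABCA1, the exporter of cholesterol, rose furthest. In WiDr it read 7.55, 7.68 and 7.62 with vehicle and 10.01, 10.11 and 9.91 with AZ628, and in HT29 7.54, 7.51 and 7.56 and 8.90, 8.84 and 8.72. No AZ628 array reached down to a vehicle array in either line. The WiDr rise was 2.39 (SE 0.07, adjusted p 1.11e-14, 5.25-fold) and the HT29 rise 1.29 (adjusted p 3.2e-11, 2.44-fold). Of its 3 probe sets, 2 rose in WiDr and 1 in HT29, the least of them differing by -0.13 and -0.02, and on their mean ABCA1 rose by 0.88 and 0.42. STARD4 rose by 0.47 in WiDr (SE 0.08, adjusted p 6.53e-05) and did not pass in HT29 (0.08, adjusted p 0.465), where 1 of its 5 probe sets rose, by 0.79, and their mean rose by 0.31 (adjusted p 0.00117). NPC1 did not pass in either line (-0.03 and 0.04).

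ELOVL6, which lengthens fatty acids, fell furthest and by like amounts in both lines. It read 9.17, 9.00 and 9.08 with vehicle and 7.01, 7.16 and 7.14 with AZ628 in WiDr, and 9.40, 9.49 and 9.37 and 7.51, 7.50 and 7.45 in HT29. The groups did not overlap in either line. The WiDr fall was 1.98 (SE 0.06, adjusted p 2.9e-14, 3.94-fold) and the HT29 fall 1.94 (SE 0.06, adjusted p 6.35e-14), on all 3 probe sets. It ranked 150th among the falls of all genes in WiDr and 108th in HT29. The difference between the lines was 0.04 (SE 0.08).

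Other fatty acid enzymes went both ways. With AZ628 FASN fell by 0.60 (SE 0.09, adjusted p 2.84e-05) in WiDr and 0.52 in HT29, and ACLY, which makes cytosolic acetyl-CoA from citrate, by 0.45 and 0.24. With another quantile normalization the HT29 call of ACLY was lost (-0.12, adjusted p 0.0891). ACACA, the acetyl-CoA carboxylase, fell by 0.29 in WiDr and did not pass in HT29 (-0.17, adjusted p 0.101), where the mean of its probe sets fell by 0.51 (adjusted p 3.18e-06). ACSS2, which makes acetyl-CoA from acetate, read 6.05, 5.77 and 6.11 with vehicle and 7.33, 7.20 and 7.13 with AZ628 in WiDr, and 6.80, 6.90 and 6.79 and 7.71, 7.72 and 7.71 in HT29. It rose by 1.24 (adjusted p 4.45e-09) and 0.88 (adjusted p 4.45e-07), and AACS by 0.55 and 0.38. On the mean of the probe sets the rises in WiDr were 0.76 for ACSS2, below 2-fold, and 0.30 for AACS, with 0.67 and 0.22 in HT29. The WiDr rise of ACSS2 was seen on 1 of its 2 probe sets. The desaturases SCD (0.12 and -0.08), FADS1 (-0.18 and -0.04) and FADS2 (0.10 and 0.09) did not pass in either line, nor did LPIN1 (-0.19 and -0.13). SCD and LPIN1 each passed under other settings, SCD rising by 0.18 in WiDr after another quantile normalization (adjusted p 0.00539) and falling by 0.27 in HT29 on the mean of its probe sets (adjusted p 2.49e-04), and LPIN1 falling by 0.26 in WiDr after median centring (adjusted p 0.0151). Of the 4 single probe sets of SCD, 1 fell in WiDr and 2 in HT29, and none rose. LPIN1 fell on 1 of its 3 probe sets in HT29 and on none in WiDr.

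Of the 16 sterol enzymes, 5 rose and 7 fell with AZ628 in WiDr, and 3 rose and 7 fell in HT29. The shares of all genes were 23.4% and 21.1% in WiDr and 22.5% and 21% in HT29. TM7SF2 read 8.71, 8.91 and 8.76 with vehicle and 10.15, 10.06 and 10.29 with AZ628 in WiDr and rose by 1.37 there (SE 0.08, adjusted p 1.41e-10, 2.59-fold). In HT29 it read 8.84, 8.70 and 8.91 and 9.88, 10.03 and 9.90 and rose by 1.12 (adjusted p 2.59e-09). All 5 of its probe sets rose in both lines. SC5D rose by 1.08 and 0.40, and LSS by 0.58 and 0.35. IDI1 rose by 0.55 in WiDr and did not pass in HT29 (0.07), and MVD rose by 0.24 in WiDr but not without vehicle replicate 3 (0.17, adjusted p 0.0828) or after median centring (0.17, adjusted p 0.0624).

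The 7 sterol enzymes that fell with AZ628 were the same in both lines. ACAT2 fell by 0.49 in WiDr and 0.90 in HT29, FDPS by 0.46 and 0.72, and SQLE by 0.54 and 0.50. DHCR7 fell by 0.33 and 0.56, EBP by 0.23 and 0.38, PMVK by 0.25 and 0.22, and NSDHL by 0.20 and 0.29. Thus early, middle and late steps of the route were among the falls, and in WiDr also among the rises. In HT29 the enzymes that rose were LSS, TM7SF2 and SC5D. HMGCS1 (0.09 and -0.06), MVK (0.12 and -0.04), MSMO1 (0.17 and 0.11) and HSD17B7 (0.15 and -0.04) did not pass in either line. For HMGCS1 the result depended on the probe set: the set whose design type marks a single gene fell by 0.37 in WiDr (adjusted p 0.00118) and 0.36 in HT29 (adjusted p 0.0013). MSMO1 rose on the mean of its probe sets, by 0.20 in WiDr (adjusted p 0.0168) and 0.19 in HT29 (adjusted p 0.0203).

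Both INSIG genes rose with AZ628. INSIG1 read 10.93, 10.56 and 10.78 with vehicle and 11.87, 11.78 and 11.61 with AZ628 in WiDr, and 10.64, 10.88 and 10.66 and 11.42, 11.33 and 11.55 in HT29. It rose by 0.99 (SE 0.10, adjusted p 1.9e-07) and 0.70 (adjusted p 1.41e-05), but on the brighter of its probe sets whose design type marks a single gene the WiDr difference was 0.29 (adjusted p 0.121). The dimmer probe set of that type rose by 0.89 in WiDr. The rise of INSIG2 was 0.93 for WiDr (SE 0.07, adjusted p 4.57e-09) and 0.61 for HT29 (adjusted p 1.09e-06). SREBF1 (0.09 and 0.03) and SREBF2 (-0.02 and -0.03) did not pass in either line, though the mean of the SREBF1 probe sets rose by 0.18 in WiDr (adjusted p 0.0108). SCAP rose by 0.20 in WiDr (adjusted p 0.0404), a call lost without AZ628 replicate 2 or 3 or vehicle replicate 1 or 3 (adjusted p 0.0555 to 0.175) and under 4 of the other alternatives, median centring among them (0.13, adjusted p 0.163).

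**Figure D3:**
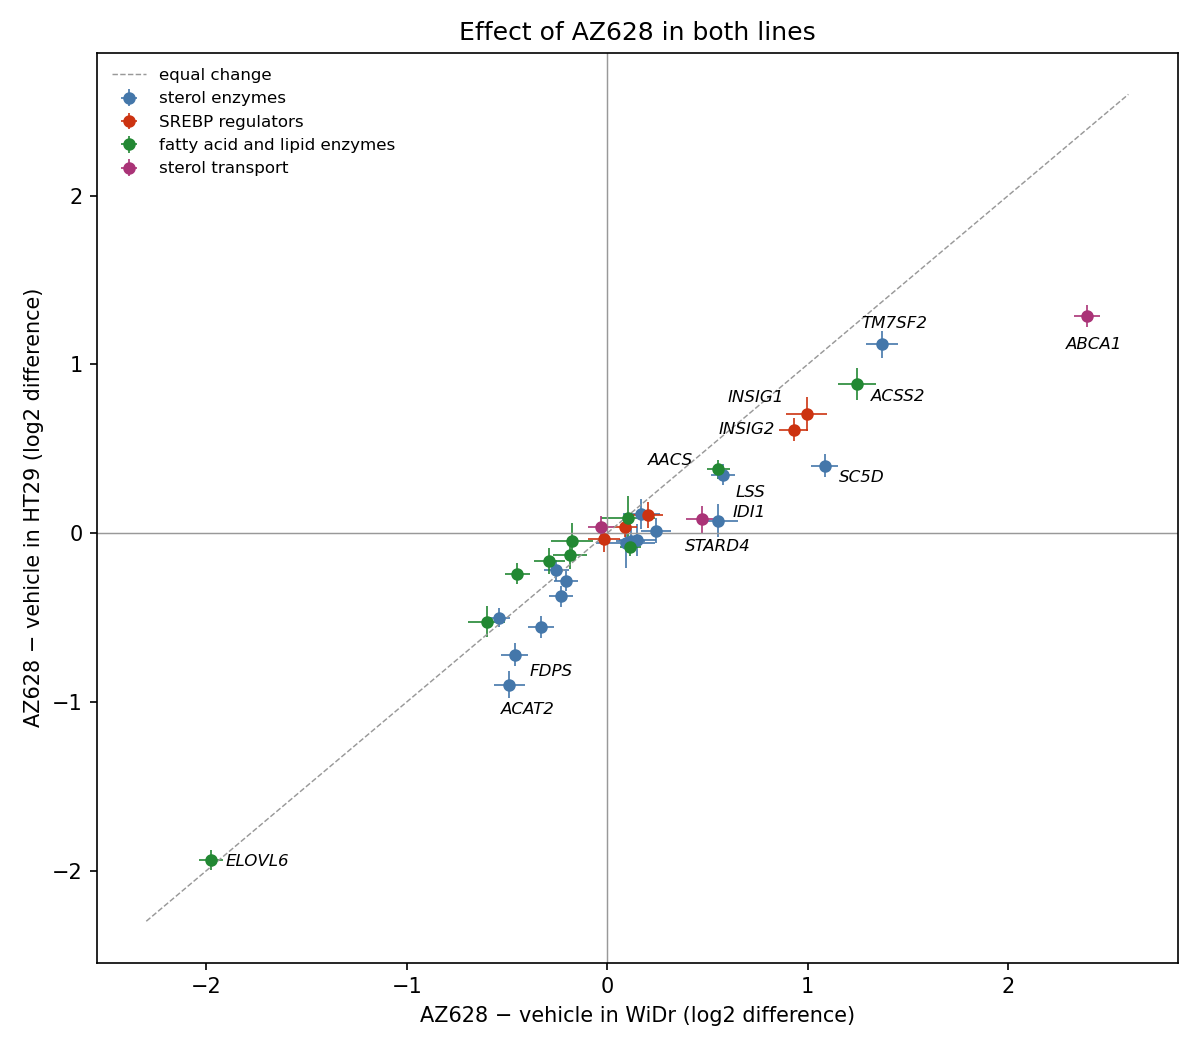
AZ628 minus vehicle, as a log2 difference, in WiDr (x axis) and HT29 (y axis), a point per gene for the 34 genes with its SE, coloured by role, and a dashed line of equal change. ABCA1 lies at 2.39 in WiDr and 1.29 in HT29, and ELOVL6 at -1.98 and -1.94.

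Between the lines, which share no array, 8 of the 34 rose in both (23.5%), 10 fell in both (29.4%) and none rose in one line and fell in the other. Of all genes, 18.4% rose in both, 17% fell in both, and 0.221% (WiDr up, HT29 down) and 0.281% (WiDr down, HT29 up) moved oppositely. The test of the difference between the AZ628 effects called 5 of the 34, all lower in HT29, against 5.13% of all genes lower and 4.06% higher. In 1 of them, ABCA1, the difference was 2-fold or more, as in 0.965% of all genes, but on the mean of the probe sets it was -0.46 (adjusted p 0.000839), and 1 of the 3 ABCA1 probe sets passed. The rise of ABCA1 was smaller in HT29 by 1.11 (SE 0.09, adjusted p 7.08e-07) and that of SC5D by 0.68 (SE 0.09, adjusted p 0.000124). SC5D read 9.79, 9.69 and 9.64 with vehicle and 10.85, 10.82 and 10.71 with AZ628 in WiDr, and 10.14, 10.32 and 10.24 and 10.62, 10.57 and 10.71 in HT29, so the HT29 arrays were the higher with vehicle (0.52), while with AZ628 the difference between the lines did not pass (-0.16). IDI1 (-0.48, adjusted p 0.0404), STARD4 (-0.39, adjusted p 0.0352) and ACAT2 (-0.41, adjusted p 0.0273) were nearer the threshold. For STARD4 the difference ran from -0.39 to 0.22 over its 5 probe sets, none of which passed when all probe sets were tested, and on their mean it was -0.15 (adjusted p 0.437). IDI1 also lost the call on the mean of its probe sets (-0.50, adjusted p 0.0735) and ACAT2 after another quantile normalization (-0.38, adjusted p 0.0577), while INSIG2 gained one on the mean of its probe sets (-0.39, adjusted p 0.0106), as did TM7SF2 (-0.33, adjusted p 0.0145). Of the 12 fits that each left out 1 array, IDI1 and STARD4 lost the call in 8 and ACAT2 in 5. The call of IDI1 was lost without replicates 1 and 2 of WiDr AZ628, WiDr vehicle and HT29 AZ628, each left out alone, and without replicates 2 and 3 of HT29 vehicle. STARD4 lost it without replicates 1 and 3 of WiDr AZ628 and of HT29 AZ628, without WiDr vehicle replicate 1 and without any HT29 vehicle replicate. ACAT2 lost it without WiDr AZ628 replicate 2, WiDr vehicle replicate 1 or 2, or HT29 AZ628 replicate 2 or 3.

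IKKα shRNA and AZ628 were then set against each other in WiDr, each against its own control. The IKKα shRNA effect was the lower of the pair for 26 of the 34 genes and the higher for 4, against 22.3% and 20.1% of all genes. The difference was at least 2-fold for 11 and 1 of them, against 12% of all genes in either direction. Control shRNA itself gave higher values than vehicle in 21 of the 34, so these counts and sizes depend on the choice of control. Vehicle as the control of both was not tried. Against vehicle, DHCR7 differed by -0.26 with IKKα shRNA and by -0.33 with AZ628. Of the 34, 8 fell with both (23.5%), against 6.59% of all genes, and 1 rose with both (INSIG2), against 5.8%. The 8 were FASN and the 7 sterol enzymes that fell with AZ628. A further 7 rose with AZ628 and fell with IKKα shRNA (MVD, IDI1, LSS, TM7SF2, INSIG1, AACS and STARD4), or 20.6%, against 7.73% of all genes. None did the reverse, as 4.21% of all genes did. Since 23 of the 34 fell with IKKα shRNA, joint falls are frequent whether or not the effects are linked, which was not tested. Under other settings the AZ628 calls of MVD (adjusted p up to 0.0828) and INSIG1 (up to 0.121) were lost. So were the IKKα shRNA calls of AACS (up to 0.0869) and FASN (up to 0.174). INSIG1 differed most, by -4.39 (SE 0.14, adjusted p 1.42e-13). TM7SF2 differed by -2.28, ABCA1 by -2.23, MSMO1 by -2.07 and IDI1 by -1.80. Another probe-set choice took INSIG1 to -2.70 (without probe sets that may bind several transcripts) and ABCA1 to -0.88 (the mean of its probe sets), both still passing.

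The 4 genes with the higher value under IKKα shRNA were ELOVL6 (2.06, SE 0.08), NPC1 (0.70), ACLY (0.38) and FASN (0.36). FASN (adjusted p 0.0378) and SCAP (-0.28, adjusted p 0.0493) each lost the call in 7 of the 12 fits without 1 array. The FASN call needed WiDr AZ628 replicates 1 and 2, vehicle replicates 2 and 3, control shRNA replicate 1 and IKKα shRNA replicates 1 and 2, and the SCAP call needed AZ628 replicates 2 and 3, vehicle replicates 1 and 3, control shRNA replicates 2 and 3 and IKKα shRNA replicate 3. PMVK, which fell with both, differed by -0.02 (SE 0.09) and did not pass, nor did SREBF2 (-0.07), FADS2 (-0.01) or ACACA (0.17). SREBF2 passed on the mean of its probe sets (-0.27, adjusted p 0.0148), as did ACACA (0.32, adjusted p 0.00909).

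**Figure D4:**
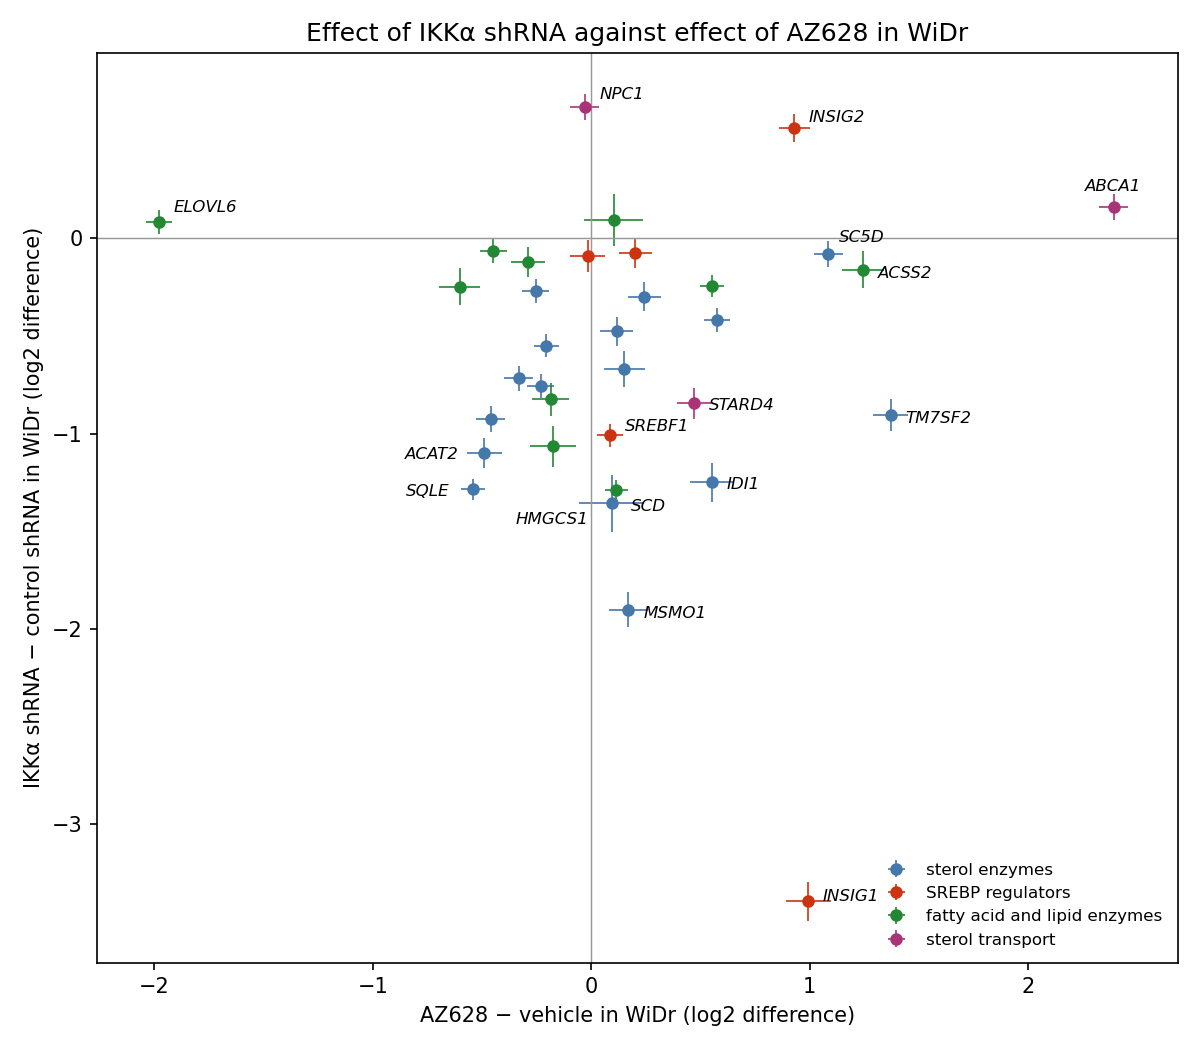
Log2 differences of the 34 genes in WiDr, AZ628 minus vehicle (x axis) against IKKα shRNA minus control shRNA (y axis), a point per gene with its SE, coloured by role. INSIG1 lies at 0.99 and -3.40, ABCA1 at 2.39 and 0.16, and ELOVL6 at -1.98 and 0.08.

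With vehicle, HT29 held more of these transcripts than WiDr. Of the 34, 16 were higher in HT29 and 3 lower, against 16.9% and 15.3% of all genes, and the median difference was 0.19 (all genes -0.01). LPIN1 read 7.96, 7.64 and 7.55 in WiDr and 9.34, 9.29 and 9.30 in HT29, which is 1.59 higher (SE 0.08, adjusted p 1.33e-10). It was the only one of the 34 that passed with 2-fold, as did 2.69% of all genes. ACSS2 was higher in HT29 by 0.86, EBP by 0.54 and SC5D and IDI1 by 0.52 each. FADS1 (-0.44), NSDHL (-0.19) and SQLE (-0.16) were lower. SQLE lost its call without vehicle replicate 2 or 3 of WiDr or 1 or 2 of HT29 (adjusted p 0.0702 to 0.188), NSDHL without vehicle replicate 2 or 3 of WiDr or 2 of HT29, and MVD, higher by 0.24, without vehicle replicate 3 of either line.

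With AZ628, 11 of the 34 were higher in HT29 and 7 lower, against 17.2% of all genes in each direction. LPIN1 and ABCA1 passed with 2-fold or more, as did 3.11% of all genes. LPIN1 stayed higher by 1.65, ACLY was higher by 0.51 and ACSS2 by 0.49, while ABCA1 was lower by 1.19 (SE 0.07), or 0.52 on the mean of its probe sets. Many of the smaller calls rested on single arrays: 6 to 10 genes were higher and 4 to 6 lower when 1 array was left out, with 6 higher without HT29 AZ628 replicate 2, and 4 lower without replicate 1 of AZ628 in either line.

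Genes around the route were read from lists of their own. Of all genes, 15.9% rose and 19% fell with IKKα shRNA against control shRNA. With AZ628, 23.4% rose and 21.1% fell in WiDr, and 22.5% and 21% in HT29. Of 6 genes that process or degrade the SREBP and INSIG proteins, 5 rose and 1 fell with IKKα shRNA, MBTPS1, the protease that first cuts SREBP, rising by 0.64 and ERLIN2 falling by 0.42. With AZ628 in WiDr, 2 rose and 2 fell, among them MBTPS1 (0.62) and MBTPS2, the protease of the following cut (-0.79), and in HT29 1 rose and 2 fell, MBTPS1 by 0.32 and ERLIN1, which acts in the breakdown of endoplasmic reticulum proteins, furthest down (-0.74). Of 7 genes of the isoprenoid branch, 4 fell with IKKα shRNA and none rose, PGGT1B, a subunit of a protein prenyltransferase, falling furthest (-0.77). With AZ628, 4 rose and 2 fell in WiDr and 2 rose and 3 fell in HT29. PDSS1, which makes the tail of coenzyme Q, fell furthest in both, by 1.99 and 1.10, and GGPS1, the geranylgeranyl diphosphate synthase, rose furthest, by 0.28 and 0.36.

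Of 17 further genes of lipid synthesis, 12 fell and 2 rose with IKKα shRNA, against 19% and 15.9% of all genes. SLC25A1, the mitochondrial citrate carrier, fell by 1.15 (SE 0.05) and GPAM, an acyltransferase of glycerolipid synthesis, rose by 0.56. With AZ628 the list split, 6 rising and 5 falling in WiDr and 5 and 5 in HT29. The shares of all genes were 23.4% and 21.1% in WiDr and 22.5% and 21% in HT29. ACSL1, which activates long-chain fatty acids, rose by 1.90 and 1.43, and HSD17B12, an enzyme of chain elongation, fell by 0.95 and 0.96. With control shRNA against vehicle, 11.6% of all genes rose and 10.6% fell. None of the 6 genes of SREBP processing passed there, and 1 of the 7 isoprenoid genes rose (COQ2, 0.17). Of the 17 lipid synthesis genes, 7 rose and none fell, ACSL1 furthest (0.61).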

How the data were processed

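RNA of 18 samples was measured on a human expression array of 49395 probe sets. The deposited values are log2 intensities, which the authors made by RMA in R 3.0.2 per the submitters' processing notes; limma is named there too. The normalization set is not given in the sources used here. The RMA values were used as deposited. Of the probe sets, 44994 have 1 symbol in the platform annotation, 1832 several and 2569 none, and each of 18132 genes was read from its probe set with the highest mean. The array number per group (3) limits precision.

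A group-means model over the 6 groups was fitted with limma 3.58.1 in R 4.3.3 (12 residual and 4.49 prior degrees of freedom, two-sided, Benjamini-Hochberg over all genes within a comparison, threshold 0.05), and the code was tested on simulated data. The 34 genes are all named; of the lists around the route, a gene could be named where it had the largest passing rise or fall of its list in a comparison. The members, lists and tests were chosen with earlier results of these data known. Alternatives were the probe-set rule, normalization, a dimness filter, the replicate block, the arrays fitted, the control, and each array left out. Promoter windows came from RefSeq on GRCh38.p14.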

Additional observations from a re-analysis of the deposited data

Results flagged for a closer look

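The effect of AZ628 differed between HT29 and WiDr, by the test of the difference itself, for 5 of the 34 genes. In each the HT29 effect was the lower, against 5.13% of all genes lower and 4.06% higher. The differences were -1.11 for ABCA1 (adjusted p 7.08e-07), -0.68 for SC5D (adjusted p 0.000124), -0.48 for IDI1 (adjusted p 0.0404), -0.41 for ACAT2 (adjusted p 0.0273) and -0.39 for STARD4 (adjusted p 0.0352), all from limma. ACAT2 fell further in HT29, ABCA1 and SC5D rose less there, and IDI1 and STARD4 rose in WiDr and did not pass in HT29. ABCA1 and SC5D kept the call in all 12 fits without 1 array, while IDI1 and STARD4 each lost it in 8 and ACAT2 in 5. On the mean of the probe sets the differences were -0.46 for ABCA1 and -0.15 (adjusted p 0.437) for STARD4. Genes named around the route were chosen for the largest passing rise or fall of their list in a comparison, the difference between lines included. Some may thus be listed because of the value given here. Among these genes, SOAT1 rose in WiDr and fell in HT29, a difference of -1.84 (adjusted p 0.000137). The effect was also lower in HT29 for ACSL5 (-0.60), ACSL1 (-0.47) and ERLIN2 (-0.42), and higher for PDSS1 (0.89), HACD3 (0.33) and MBTPS2 (0.30), with adjusted p from 0.000276 to 0.0425.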

How the results depend on the processing

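Of 4386 values of the 34 genes under other settings, 4155 kept direction and call, 172 lost the call, 55 gained it and 4 turned. The turned values all came from leaving out probe sets that may bind several transcripts: HMGCS1 with AZ628 in WiDr (-0.37, adjusted p 0.00118), STARD4 with control shRNA against vehicle (0.39, adjusted p 0.0403), and INSIG1 (0.31, adjusted p 0.111) and INSIG2 (0.17, adjusted p 0.0185) in HT29 against WiDr with AZ628.

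Requiring 2-fold as well left 1573 genes with 4 of the 34 higher and 1 lower for AZ628 in WiDr, and 1314 with 2 and 1 in HT29. It left 684 with 0 and 9 for IKKα shRNA, 71 with 0 higher for control shRNA against vehicle, and 515 with 0 and 3 for IKKα shRNA against vehicle. It left 488 with 1 and 0 for HT29 against WiDr with vehicle, 563 with 1 and 1 with AZ628, 175 with 1 lower for the difference between lines, and 2168 with 1 and 11 for IKKα shRNA against AZ628. With vehicle as control, 7 rose with IKKα shRNA. On probe-set means, 1 was lower with control shRNA than vehicle. With only the groups compared, 1 was lower in HT29 with vehicle, 6 higher in HT29 with AZ628, and 2 lower in the difference between lines, where another quantile normalization gave 1 higher.

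Without 1 array, genes passing for control shRNA against vehicle ranged from 2309 to 4171 and members lower from 0 to 1. Members lower in HT29 ranged from 1 to 3 with vehicle and 4 to 6 with AZ628, members higher there with AZ628 from 6 to 10, and members lower in the difference between lines from 2 to 5. The cause was not tested. Replicate numbers did not pair the arrays: deviations of same-numbered arrays correlated at -0.29 to 0.36 and 7 of 18 arrays correlated best with their own number. With the replicate block, 3 members were lower in the difference between lines, IDI1 (adjusted p 0.0503) and STARD4 (0.0519) losing the call.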

Other observations

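Of 12 further genes that store, sense or carry sterols, 4 rose and 6 fell with IKKα shRNA against control shRNA. Of all genes, 15.9% rose and 19% fell. SOAT1, which esterifies cholesterol for storage, fell by 2.66 (SE 0.18, adjusted p 3.12e-09), and VLDLR, a lipoprotein receptor, rose by 2.30 (SE 0.10, adjusted p 1.15e-11). With AZ628, 9 rose and 2 fell in WiDr, against 23.4% and 21.1% of all genes. NPC2, the lysosomal partner of NPC1, rose furthest there (1.21), and SCARB1, a receptor for high-density lipoprotein, fell furthest (-0.51). In HT29 6 of the 12 rose and 3 fell, against 22.5% and 21% of all genes. With control shRNA against vehicle, 6 of the 12 rose, ABCG1 furthest (0.71), and none fell, against 11.6% and 10.6% of all genes. ABCG1, a sterol exporter, rose by 1.25 in HT29 (adjusted p 9.13e-09) and by 1.08 in WiDr. SOAT1 rose by 0.92 in WiDr (adjusted p 0.000363) and fell by 0.92 in HT29 (adjusted p 0.000411), a difference of -1.84 (adjusted p 0.000137). With vehicle SOAT1 was 2.02 higher in HT29 than in WiDr.

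In some groups, arrays ranked alike for INSIG1, HMGCS1, MSMO1 and FDPS, a pattern chosen after the values were seen. In all 4 genes, WiDr vehicle replicate 2 was the lowest of its group and replicate 1 the highest, and IKKα shRNA replicate 1 was the lowest and replicate 3 the highest. HT29 vehicle replicate 2 was the highest of its group in all 4, and HT29 AZ628 replicate 2 and WiDr AZ628 replicate 3 the lowest. The control shRNA arrays had no such shared order: replicate 3 was the highest for INSIG1 and the lowest for FDPS. Each array named for the other groups held that rank in 29.4% to 40.5% of all genes. For HMGCS1 the vehicle arrays of WiDr read 9.67, 9.12 and 9.43 and those of HT29 9.42, 9.77 and 9.41.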
